A study of Mus musculus with 8 samples.

Results

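Nuclear receptors are transcription factors that most often carry a zinc-finger DNA-binding domain and a ligand-binding domain, so that steroids, thyroid hormone, vitamin D, retinoids, oxysterols or fatty acids can switch target genes directly. Many bind DNA as partners of a retinoid X receptor, and coactivators and corepressors set whether a bound receptor raises or lowers transcription. In the prostate, members of the superfamily act in the epithelium, where secretion depends on androgen, and in the stroma. The set described here held 44 listed receptor genes. They were named by gene symbol, with earlier results of these data already known. Of these, 40 genes had at least 1 probe set annotated to that gene alone, 68 probe sets in all of 22690 on the array, and Nr3c2, Nr1h2, Nr2e1 and Nr2e3 were not analysed here.

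RNA came from the ventral prostate of male FVB mice aged 8 weeks, on 4 arrays from wild-type animals and 4 arrays from animals transgenic for the polyoma virus middle T antigen (MT), a membrane-bound viral oncoprotein that recruits Src-family kinases and phosphatidylinositol 3-kinase. The study compared normal prostate with the prostate cancer that MT induces. The sources used here do not name the promoter that drives the transgene. No label says whether the 4 arrays stand for separate or pooled animals, so the p-values measure the spread between these arrays, which may be technical. All levels are log2 values from the robust multi-array average (RMA), all differences are MT minus wild type, and means carry the SD over n = 4 arrays. A gene is called higher or lower where its Benjamini-Hochberg adjusted p, from a limma fit over 12393 genes, was under 0.05. A level is specific to its probe set, so levels are compared between arrays and never between genes.

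The background of change on these arrays was large, with 41.1% of all genes called, 19.7% higher and 21.3% lower in MT. Within-group correlations between arrays ran between 0.99195 and 0.99434 in the wild-type arrays and between 0.99625 and 0.9971 in the MT arrays, against 0.96802 to 0.97354 between groups. Genes of the prostate's secretory cells marked the tissue, and Pbsn, which encodes the androgen-dependent protein probasin, had a mean of 13.28 ± 0.38 in wild type and 9.12 ± 0.68 in MT. All 5 measured genes of that list changed: the secreted products Pbsn, Spink1, Azgp1 and Msmb were lower, and Hoxb13, a homeobox transcription factor of the prostate, was higher (0.26, limma adjusted p = 0.00425). None of 6 seminal vesicle genes was called by limma, with 0 at an unadjusted p under 0.05, and Pate4, Svs4 and Svs6 stayed at or below the bacterial control probe sets on all 8 arrays. The drop of signal from 3′ to 5′ along 2 control transcripts, a sign of RNA quality, was 0.54 to 0.92 for Gapdh in wild type and 0.45 to 0.64 in MT, and 0.71 to 1.05 against 0.57 to 0.85 for Actb. The differences of -0.19 (two-sided exact permutation p = 0.0857) and -0.18 (exact p = 0.114) did not pass, the smallest p that 4 arrays against 4 allow being 0.0286.

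Of the 40 receptors measured, 13 changed between wild type and MT, or 32.5%, which lay below the background of 41.1% over all genes. More of these were called lower than higher. The lower receptors were Nr2f1, Rxrg, Ppara, Thra, Rora, Nr3c1, Nr1h3, Esrrb, Rarb and Esrrg, and these 10 made up 25% of those measured against 21.3% of all genes. That share lay near the background, and 6 of the 10 passed at a threshold of 0.01 (15% beside 15.1% of all genes). The calls of Nr1h3, Esrrb, Rarb and Esrrg were lost when certain single arrays were left out. Those of Rarb and Esrrg were also lost with the array numbers as pairs. The 3 higher receptors were Esrra, Vdr and Nr2c1, or 7.5% against 19.7%. Nr2c1 is counted by 1 probe set, while its second was called lower (-0.29, limma adjusted p = 0.00328 over all probe sets). Of the 40 receptors, 12 lay above the median level of all genes. In a fit limited to genes above that level, 16.7% of receptors were higher and 33.3% lower, beside 29.2% and 31.1% of all genes. The part of signal level in the shares called was not tested. The median log2 fold change over the 40 receptors was -0.07, beside -0.01 over all genes, and 24 of the 40 had a negative difference (60% against 51.9%). Fold changes were small for most of them, from -1.40 to 0.48 on the log2 scale, and 2 receptors, Nr2f1 and Rxrg, passed with a change of at least 2-fold. The 4 MT values lay wholly outside the range of the 4 wild-type values for 12 receptors, or 30% against 40.0% of all genes. Of these 12, 8 were called and 4 were not.

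**Figure D1:**
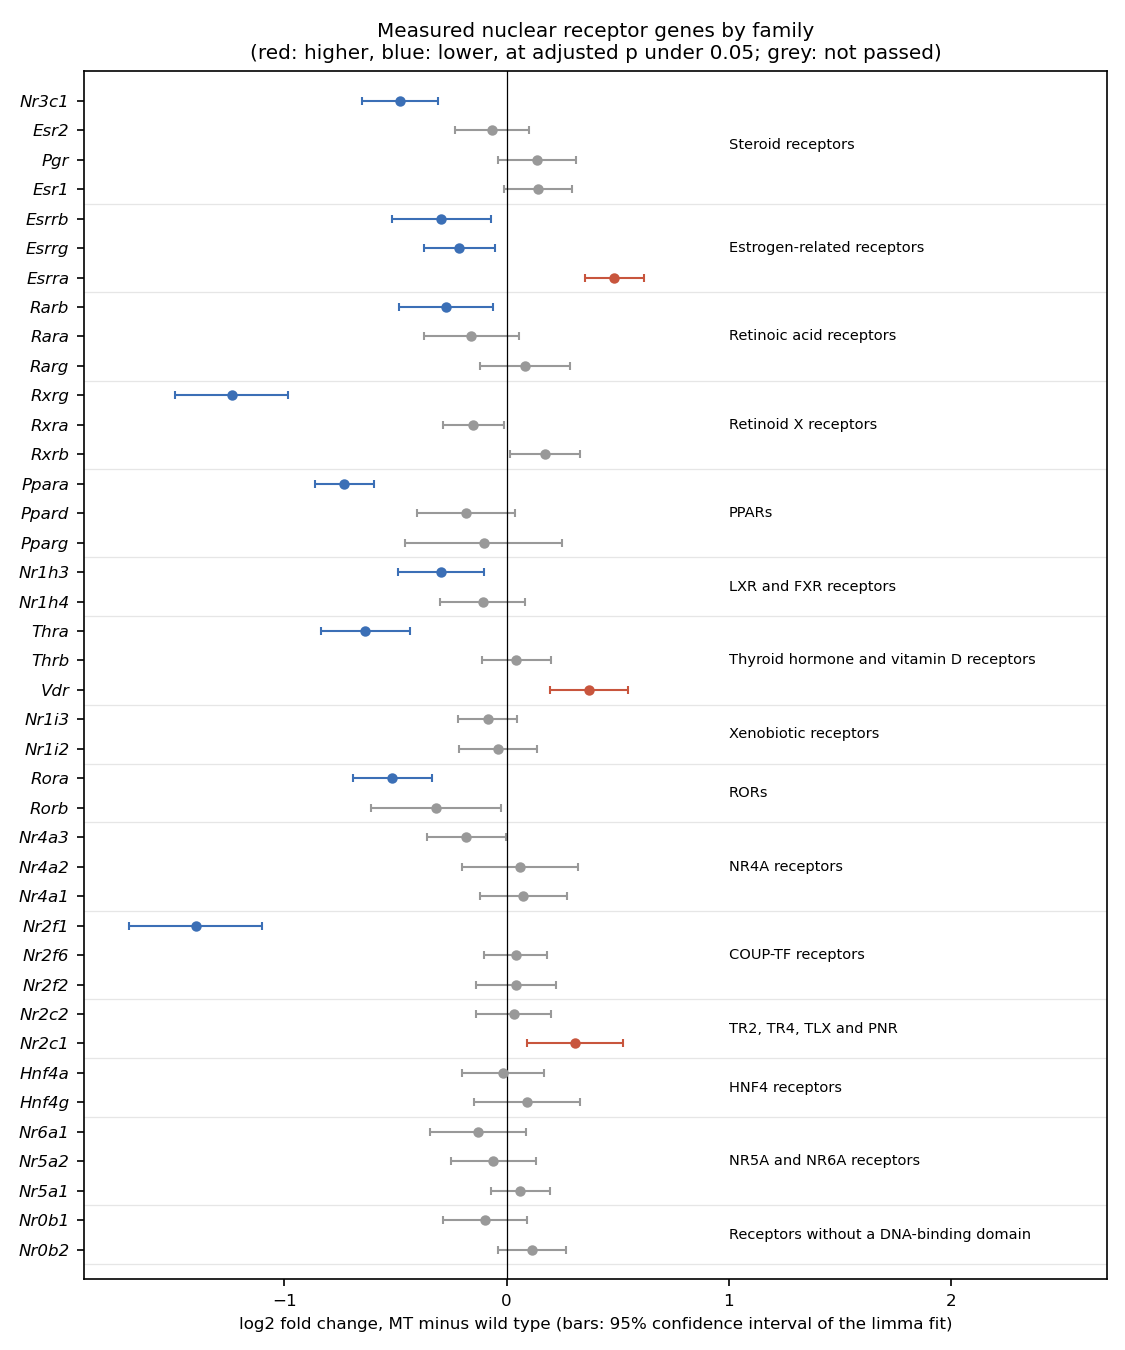
Log2 fold change of MT over wild type for all 40 measured nuclear receptors, grouped by family, with 95% confidence intervals of the limma fit (n = 4 arrays per group). Nr2f1 and Rxrg lie farthest to the left at -1.40 and -1.24, Esrra lies farthest to the right at 0.48, and among the 27 receptors that were not called the intervals span 0 for all except Rxra, Rxrb, Rorb and Nr4a3.

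The largest fall was that of Nr2f1, which encodes COUP-TFI, an orphan receptor that patterns developing organs and often represses transcription. Its level was 5.15, 4.86, 5.05 and 5.47 on the 4 wild-type arrays and 3.75, 3.47, 3.71 and 4.01 on the 4 MT arrays. All 4 MT values lay well below the lowest wild-type value, and the MT array at 3.47 was the 1 of 4 that did not exceed the bacterial controls. The means of 5.13 ± 0.26 and 3.73 ± 0.22 gave a log2 fold change of -1.40 ± 0.14 (SE), or 2.63-fold lower, with an adjusted p of 1.08e-05 in limma. With the MT array at 3.47 raised to its highest bacterial control, the fall was 2.57-fold. The related receptors did not share this fall. Nr2f2, which encodes COUP-TFII, a regulator of stromal and venous identity, went from 9.41 ± 0.14 to 9.45 ± 0.09, a difference of 0.04 with a 95% interval from -0.14 to 0.22. Nr2f6 had a difference of 0.04 with an interval from -0.10 to 0.18.

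The retinoid X receptors, the common partners of many other receptors, split by member. Rxrg, the form known for its restricted expression in muscle and brain, was at 6.73, 7.28, 6.73 and 7.03 in wild type and at 5.75, 5.63, 5.79 and 5.64 in MT. No MT array came near the wild-type range, and the MT values were tightly packed. The mean fell from 6.94 ± 0.27 to 5.71 ± 0.08, a log2 fold change of -1.24 ± 0.12 and 2.36-fold lower (limma adjusted p = 8.44e-06). Rxra, the main form in epithelia, ran between 7.51 and 7.69 in the wild-type arrays and between 7.42 and 7.47 in the MT arrays, without overlap, yet its difference of -0.15 ± 0.06 did not pass (adjusted p = 0.0774). Its other probe set differed by 0.02. Rxrb, which is broadly expressed, ran between 7.92 and 8.12 in the wild-type arrays and between 8.16 and 8.34 in the MT arrays, and its difference of 0.17 ± 0.07 did not pass either (adjusted p = 0.0749). Among genes above the median level alone, both passed, with adjusted p of 0.0438 for Rxra and 0.0471 for Rxrb. Over all alternatives run, the adjusted p ran from 0.0438 to 0.382 for Rxra and from 0.0471 to 0.195 for Rxrb.

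Among the retinoic acid receptors, which need an RXR partner, Rarb was the 1 member called. Its wild-type levels of 4.56, 4.14, 4.53 and 4.43 overlapped the MT levels of 4.04, 4.20, 4.09 and 4.25, because the second wild-type array was among the low values. The log2 fold change was -0.27 ± 0.10 (limma adjusted p = 0.0407). With the array numbers as pairs the adjusted p was 0.0591, and it lay between 0.0616 and 0.107 without any 1 of 6 of the 8 arrays (wild type 1, 3 and 4, and MT 1, 2 and 3). Over all alternatives it ran from 0.00319 to 0.107. Rara differed by -0.16 with an interval from -0.37 to 0.06, and Rarg by 0.08 with an interval from -0.12 to 0.29.

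**Figure D2:**
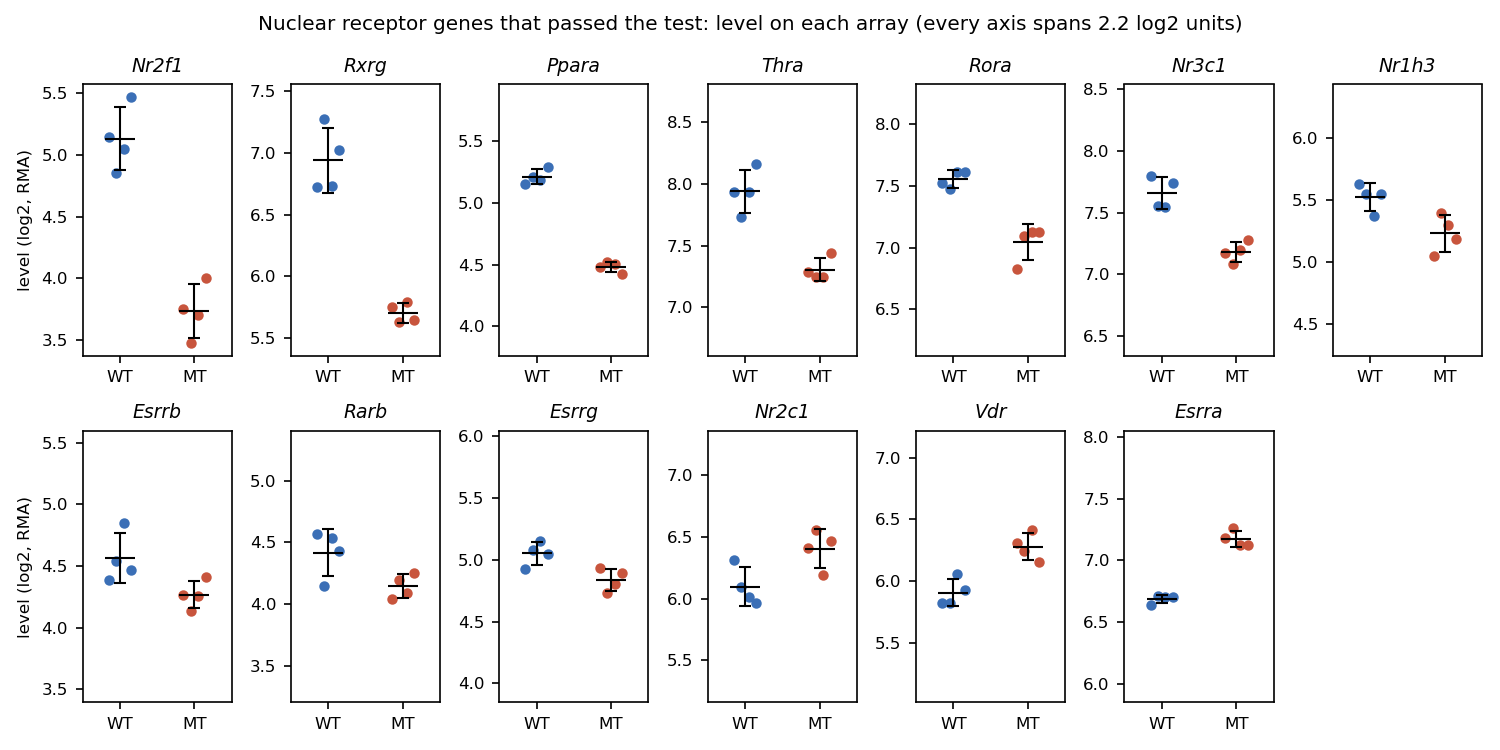
Log2 RMA level of each of the 13 called receptors on every array, with the mean ± SD of each group as lines (n = 4 wild type, n = 4 MT). The groups do not overlap for Nr2f1, Rxrg, Ppara, Thra, Rora, Nr3c1, Vdr and Esrra, and they share part of their range for Nr1h3, Esrrb, Rarb, Esrrg and Nr2c1.

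The peroxisome proliferator-activated receptors sense fatty acids, and Ppara, which turns on fat oxidation in mitochondria and peroxisomes, had one of the most even falls. Its level was 5.16, 5.21, 5.19 and 5.29 in wild type and 4.48, 4.52, 4.50 and 4.43 in MT. Both groups were tightly packed, and the gap between them was several times their spread. The mean fell from 5.21 ± 0.06 to 4.48 ± 0.04, a log2 fold change of -0.73 ± 0.06 and 1.66-fold lower (limma adjusted p = 3.15e-06). Ppard, a broadly expressed fatty acid receptor, differed by -0.18 (adjusted p = 0.179). Pparg, the receptor that drives fat cell formation, was at 4.91, 5.42, 5.41 and 5.90 in wild type and at 5.38, 5.35, 5.31 and 5.20 in MT. The wild-type arrays spread widely and enclosed the MT arrays, and the difference was -0.10 ± 0.16 with an interval from -0.46 to 0.25. The mean level of 5 adipocyte genes was 5.16, 5.86, 6.13 and 6.92 on the same wild-type arrays and 4.95, 5.50, 4.94 and 4.93 on the MT arrays, so the wild-type array lowest in Pparg was lowest in these genes and the array highest in Pparg was highest. Among the MT arrays, array 4 was lowest in both, while the adipocyte genes were highest on array 2 (5.50) and Pparg on array 1 (5.38). Without wild-type array 4 the Pparg difference was 0.06, and without wild-type array 1 it was -0.27. The part of fat tissue in these values was not tested.

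Thyroid hormone and vitamin D act through receptors that pair with RXR. Thra, the thyroid hormone receptor alpha gene, was at 7.94, 7.73, 7.93 and 8.16 in wild type and at 7.29, 7.25, 7.25 and 7.44 in MT. Every MT array was lower than every wild-type array, and the mean fell from 7.94 ± 0.18 to 7.31 ± 0.09, a log2 fold change of -0.64 ± 0.09 and 1.55-fold lower (limma adjusted p = 0.000197). A second probe set differed by -0.11 (adjusted p = 0.311 over all probe sets), and averaged over both the fall was 0.37. Thrb, the beta form, differed by 0.04 with an interval from -0.11 to 0.20. Vdr, the vitamin D receptor gene, moved the other way, from 5.82, 5.82, 6.05 and 5.93 in wild type to 6.30, 6.24, 6.41 and 6.15 in MT, with no overlap. The mean rose from 5.91 ± 0.11 to 6.28 ± 0.11, a log2 fold change of 0.37 ± 0.08 and 1.29-fold higher (adjusted p = 0.00299). Its second probe set rose by 0.46 ± 0.09 (adjusted p = 0.00207 over all probe sets).

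The estrogen-related receptors bind no known natural hormone and govern oxidative metabolism together with the PGC-1 coactivators. All 3 were called, in different directions. Esrra was at 6.64, 6.71, 6.71 and 6.70 in wild type and at 7.18, 7.26, 7.12 and 7.13 in MT, a rise from 6.69 ± 0.03 to 7.17 ± 0.06 that was large beside the spread in either group. The log2 fold change was 0.48 ± 0.06, or 1.40-fold higher (limma adjusted p = 7.08e-05). Esrrb, known for its role in pluripotent cells and placenta, was at 4.38, 4.54, 4.85 and 4.47 in wild type and at 4.26, 4.14, 4.26 and 4.41 in MT, with MT array 4 above the lowest wild-type array. Its fall of 0.29 ± 0.10 passed narrowly (adjusted p = 0.0381), its second probe set did not pass (-0.14), and the adjusted p rose to between 0.0579 and 0.107 when any 1 of 5 arrays was left out (wild type 2 or 3, or MT 1, 2 or 3). Esrrg, which supports mitochondrial function in energy-demanding tissues, was at 4.93, 5.08, 5.16 and 5.05 in wild type and at 4.93, 4.73, 4.80 and 4.89 in MT. Its fall of 0.21 ± 0.07 (adjusted p = 0.0362) was lost without any 1 of 6 arrays (wild type 2, 3 and 4, and MT 2, 3 and 4), at adjusted p from 0.0522 to 0.107, and with the array numbers as pairs (adjusted p = 0.0643). Over all alternatives the adjusted p ran from 0.0154 to 0.107 for Esrrb and from 0.0199 to 0.151 for Esrrg.

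Among the steroid receptors, the glucocorticoid receptor gene Nr3c1 was the 1 member called. It was at 7.80, 7.55, 7.55 and 7.74 in wild type and at 7.17, 7.08, 7.20 and 7.28 in MT, with all MT arrays below all wild-type arrays. The mean fell from 7.66 ± 0.13 to 7.18 ± 0.08, a log2 fold change of -0.48 ± 0.08 and 1.39-fold lower (limma adjusted p = 0.0005). A second probe set fell further, from 6.99 ± 0.36 to 5.93 ± 0.13 (-1.07 ± 0.15, adjusted p = 0.000217 over all probe sets), and the remaining one differed by -0.28 (adjusted p = 0.0945). The estrogen receptor genes were not called. Esr1, the alpha form, ran between 4.45 and 4.58 in the wild-type arrays and between 4.54 and 4.79 in the MT arrays, a difference of 0.14 with an interval from -0.01 to 0.30. Esr2, the beta form known from prostate epithelium, differed by -0.07 with an interval from -0.23 to 0.10. Pgr, the progesterone receptor gene, differed by 0.14 (interval -0.04 to 0.31), and on 2 of 4 wild-type arrays it did not exceed the bacterial controls.

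Of the sterol sensors, Nr1h3, which encodes LXR alpha, a sensor of oxysterols that controls cholesterol efflux, was at 5.63, 5.55, 5.37 and 5.55 in wild type and at 5.04, 5.40, 5.30 and 5.18 in MT. MT array 2 reached above the lowest wild-type array, and the fall of 0.30 ± 0.09 (limma adjusted p = 0.0191) was lost without wild-type array 1 (0.0526), MT array 1 (0.0579) or MT array 4 (0.0522), in a range of 0.0107 to 0.0579 over all alternatives. Nr1h4, the bile acid receptor FXR, differed by -0.11 (adjusted p = 0.361). The xenobiotic receptors Nr1i2 (PXR) and Nr1i3 (CAR), which act mainly in liver and gut, differed by -0.04 and -0.08 and were not called.

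Rora, which encodes a receptor of the circadian clock and of lipid metabolism, was at 7.53, 7.47, 7.61 and 7.62 in wild type and at 6.83, 7.09, 7.13 and 7.13 in MT. MT array 1 was lowest, and no MT array reached the wild-type range. The mean fell from 7.56 ± 0.07 to 7.04 ± 0.14, a log2 fold change of -0.51 ± 0.08 and 1.43-fold lower (limma adjusted p = 0.000383). A second probe set fell by 0.26 (adjusted p = 0.00539 over all probe sets) and the remaining one differed by -0.05, so that the mean over the 3 probe sets was a fall of 0.27. Rorb, known from retina and brain, was at 5.76, 5.80, 5.18 and 5.34 in wild type and ran from 5.06 to 5.32 in MT. Its difference of -0.32 ± 0.13 did not pass (adjusted p = 0.0796), but did so when the third wild-type array was left out (-0.43, adjusted p = 0.0147) or the arrays were weighted (0.0462), in a range from 0.0147 to 0.197 over all alternatives.

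The NR4A receptors are immediate early genes that respond to growth signals and stress without a ligand, and none of the 3 was called in limma, although 1 of them, Nr4a3, had an unadjusted p under 0.05. Nr4a1 was at 6.89, 6.63, 6.63 and 6.97 in wild type and at 6.89, 6.75, 6.94 and 6.85 in MT, a difference of 0.08 with an interval from -0.12 to 0.27. Nr4a2 differed by 0.06 with an interval from -0.20 to 0.32. Nr4a3 ran between 7.01 and 7.36 in the wild-type arrays and between 6.92 and 7.0 in the MT arrays, and its difference of -0.18 did not pass (adjusted p = 0.0952). On the same arrays 7 of 11 other immediate early and heat shock genes rose, with a mean level over the 11 of 6.70 to 6.89 in wild type and 7.74 to 8.11 in MT. Egr1 rose by 3.26 ± 0.25 and Jun by 1.96 ± 0.14. The NR4A intervals did not reach rises of that size.

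Nr2c1, which encodes the orphan receptor TR2, was at 6.32, 6.10, 6.01 and 5.97 in wild type and at 6.41, 6.55, 6.19 and 6.47 in MT on the probe set that stood for it. The groups overlapped, and the rise of 0.31 ± 0.10 (limma adjusted p = 0.0256) was opposed by a second probe set, which fell from 5.0 ± 0.03 to 4.71 ± 0.07 (-0.29 ± 0.06, adjusted p = 0.00328 over all probe sets). The mean over both probe sets was 0.01 (adjusted p = 0.932), so no direction can be given for the gene. The call of the higher probe set was also lost without any 1 of 5 arrays (wild type 3 and 4, and MT 1, 2 and 4), at adjusted p from 0.0542 to 0.0784, and its adjusted p ran from 0.00805 to 0.932 over all alternatives. Nr2c2, which encodes the related receptor TR4, differed by 0.03.

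The remaining receptors gave small differences. Hnf4a, a regulator of liver and gut epithelium, ran between 6.17 and 6.55 in the wild-type arrays and between 6.32 and 6.44 in the MT arrays, a difference of -0.02 with an interval from -0.20 to 0.17. Hnf4g did not exceed the bacterial controls on 3 of 4 arrays in either group. Nr5a1 and Nr5a2, regulators of steroid and bile acid synthesis, differed by 0.06 and -0.06, and the germ cell factor Nr6a1 by -0.13. Of the members without a DNA-binding domain, Nr0b1 (DAX1) differed by -0.09 and was at or below the controls on 3 of 8 arrays. Nr0b2 (SHP), a repressor of other receptors, ran between 5.47 and 5.71 in the wild-type arrays and between 5.71 and 5.80 in the MT arrays, and its difference of 0.11 did not pass (adjusted p = 0.223). In all, 36 of the 40 receptors exceeded the highest bacterial control on all 8 arrays.

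**Figure D3:**
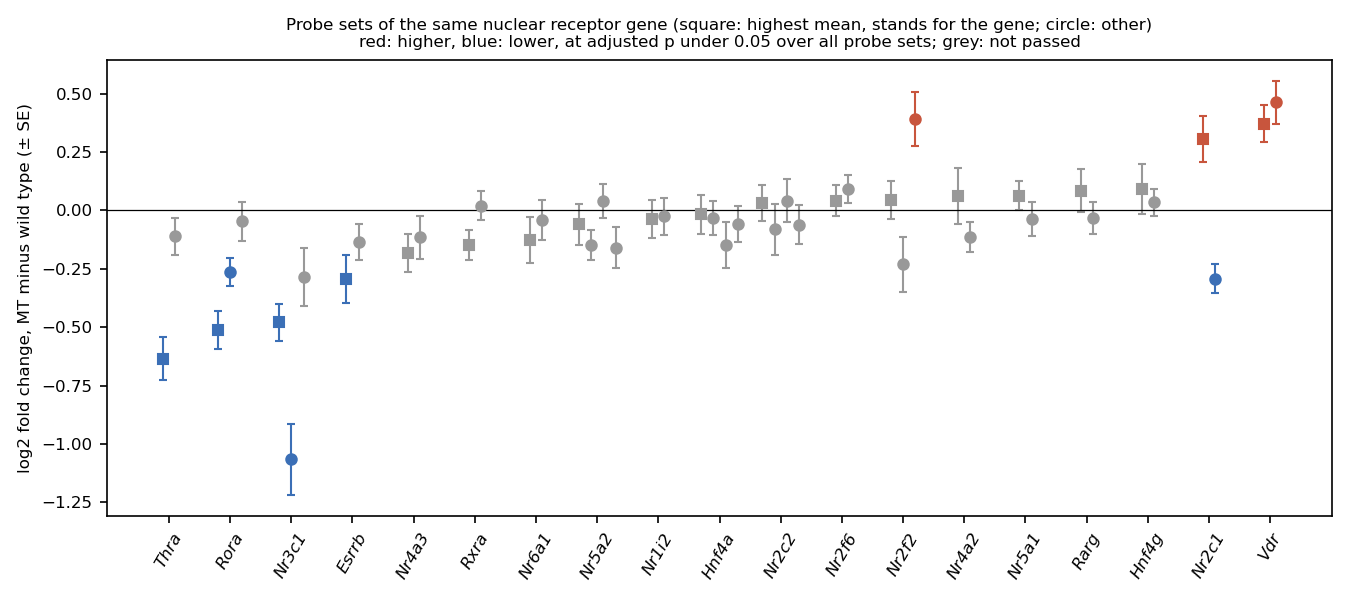
Log2 fold change of every probe set of the 19 receptors that have several, with the SE as bars (n = 4 arrays per group, adjustment over 20380 probe sets). The 2 probe sets of Vdr lie on the same side, those of Nr2c1 lie on opposite sides of 0, and those of Nr3c1, Rora and Thra differ in size.

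Probe sets of one gene can read different transcript ends, and 19 receptors had several. For 12 of the 19 no probe set was called, for Vdr all were called in 1 direction, and for Nr2c1 they were called in opposite directions. In the other 5 (Nr3c1, Rora, Thra, Esrrb and Nr2f2) some were called 1 way and others were not. Nr2f2 was the case where the call came from a probe set that did not stand for the gene. That probe set rose from 6.68 ± 0.24 to 7.07 ± 0.12 (0.39 ± 0.11, limma adjusted p = 0.018 over all probe sets), while another differed by -0.23 (adjusted p = 0.15). Of all 68 receptor probe sets 18 were called, in a table where 38.4% of single-symbol probe sets were.

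RefSeq promoter windows, the 250 bases before an annotated start on the mouse build GRCm38.p6, are shown for the 3 receptors that fell furthest and for the 2 rises whose groups do not overlap. Capitals mark matches, on either strand, to AGGTCA, the core hexamer that many receptors bind, to AGAACA, the core of the glucocorticoid and androgen response element, and to GGGCGG, the GC box. No pair of these motifs overlaps another in the windows shown. Of the 2 Nr2f1 entries the more GC-rich one is given, at chr13:78198874-78199123 on the minus strand with 72% G and C. Rxrg has 2 starts, at chr1:167598112-167598361 and chr1:167618015-167618264 on the plus strand, and the others lie at chr15:85735526-85735775 on the plus strand (Ppara), chr19:6921809-6922058 on the minus strand (Esrra) and chr15:97908297-97908546 on the minus strand (Vdr).
Nr2f1: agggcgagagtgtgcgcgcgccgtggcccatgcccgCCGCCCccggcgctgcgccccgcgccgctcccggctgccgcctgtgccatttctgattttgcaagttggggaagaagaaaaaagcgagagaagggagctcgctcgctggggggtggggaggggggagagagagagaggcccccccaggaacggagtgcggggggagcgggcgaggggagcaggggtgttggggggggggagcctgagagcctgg
Rxrg first start: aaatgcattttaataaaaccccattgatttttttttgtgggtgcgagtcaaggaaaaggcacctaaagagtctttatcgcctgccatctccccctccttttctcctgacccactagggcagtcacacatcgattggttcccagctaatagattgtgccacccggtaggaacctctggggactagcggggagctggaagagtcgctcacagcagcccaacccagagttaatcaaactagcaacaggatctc
Rxrg second start: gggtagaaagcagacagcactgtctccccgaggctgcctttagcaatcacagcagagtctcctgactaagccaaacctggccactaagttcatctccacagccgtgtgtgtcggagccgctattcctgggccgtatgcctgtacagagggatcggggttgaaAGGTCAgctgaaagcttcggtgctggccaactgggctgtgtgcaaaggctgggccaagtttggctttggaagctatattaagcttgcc
Ppara: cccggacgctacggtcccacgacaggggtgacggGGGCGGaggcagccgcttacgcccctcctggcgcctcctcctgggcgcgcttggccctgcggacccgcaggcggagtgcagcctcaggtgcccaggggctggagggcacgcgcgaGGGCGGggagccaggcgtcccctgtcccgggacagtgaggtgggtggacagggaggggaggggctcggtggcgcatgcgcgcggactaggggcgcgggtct
Esrra: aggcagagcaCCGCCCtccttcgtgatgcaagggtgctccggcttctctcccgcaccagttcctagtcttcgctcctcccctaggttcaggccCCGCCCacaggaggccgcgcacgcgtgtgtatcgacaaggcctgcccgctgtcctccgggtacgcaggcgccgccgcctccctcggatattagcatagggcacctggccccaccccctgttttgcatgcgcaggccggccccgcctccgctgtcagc
Vdr: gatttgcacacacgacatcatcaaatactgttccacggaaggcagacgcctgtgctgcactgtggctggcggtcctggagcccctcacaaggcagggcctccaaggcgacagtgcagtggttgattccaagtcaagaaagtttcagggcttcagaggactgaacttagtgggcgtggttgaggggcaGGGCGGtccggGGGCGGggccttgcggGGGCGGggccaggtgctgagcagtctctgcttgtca
The GC box appears 1 time in the Nr2f1 window, 2 times in Ppara, 2 times in Esrra and 3 times in Vdr. It is in neither Rxrg window, and the other Nr2f1 entry, at chr13:78196450-78196699, holds none either. The second Rxrg window holds 1 AGGTCA, and the first holds none of the 3 motifs.

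Over the 36 measured receptors with an entry, 57 windows were searched. AGGTCA was in 10 of them, or 17.5%, beside 14% of all 32851 mouse windows of the same length. AGAACA was in 4, or 7.02%, beside 16.1% of all, and GGGCGG was in 26, or 45.6%, beside 32.7%. Among the 18 windows of called receptors these motifs were in 1, 1 and 6. Hnf4g, Nr3c1, Nr5a1 and Thra had no entry. A match describes letters in the window and is no measured binding site, and the arrays do not tell which start was in use.

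The coregulators, ligand enzymes and target genes of these receptors moved in both directions. Of 127 listed pathway genes 109 were measured, and 22 were higher and 34 lower in MT, together 51.4% beside 41.1% of all genes, with a median log2 fold change of -0.01 in these genes and in all genes. In the fit limited to genes above the median level, 73 of the 109 were tested. There 28.8% were higher and 39.7% lower, beside 29.2% and 31.1% of all genes. The part of signal level in the shares called was not tested. The share called lay below that 41.1% for coactivators (40%), corepressors (27.3%), LXR and FXR targets (36.4%) and vitamin D and thyroid hormone targets (25%). It lay above 41.1% for ligand enzymes (50%) and for targets of glucocorticoid and mineralocorticoid (62.5%), estrogen (55.6%) and retinoic acid (50%) receptors. The PPAR targets (61.5%) and estrogen-related receptor targets (63.6%) lay above it too. Some genes stand in more than 1 list, and Esrra, Rarb, Pgr and Nr0b2 are receptors as well as targets.

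Among 15 measured coactivators 3 rose and 3 fell, with a median of 0.13. Ncoa3, a steroid receptor coactivator of the p160 family, rose from 6.61 ± 0.09 to 7.22 ± 0.06 (0.62 ± 0.07, limma adjusted p = 2.5e-05). Ncoa4, known as a steroid receptor coactivator and as the receptor for ferritin autophagy, fell from 11.44 ± 0.21 to 10.70 ± 0.11 (-0.74 ± 0.10, adjusted p = 0.000153). Cited2, a CBP/p300-binding cofactor, fell by 0.77 ± 0.11 (adjusted p = 0.000224). Ppargc1a, which encodes PGC-1 alpha, the partner of Esrra and Ppara, went from 6.52 ± 0.18 to 6.31 ± 0.15 and did not pass (adjusted p = 0.14), though it passed with the array numbers as pairs (0.0372); as the mean over its probe sets it differed by -0.03 (0.782), the adjusted p thus running from 0.0372 to 0.782 over all alternatives. It was chosen after its values were seen. Of 11 corepressors 2 rose and 1 fell, with a median of 0.17. Nrip1, which encodes RIP140, a ligand-dependent corepressor, was at 10.16, 10.38, 10.12 and 10.37 in wild type and at 9.45, 9.27, 9.54 and 9.16 in MT. All MT arrays lay below all wild-type arrays, and it fell by 0.90 ± 0.10 (adjusted p = 2.27e-05). Gps2, a subunit of the NCoR complex, rose by 0.41 ± 0.09 (adjusted p = 0.00299). Kdm1a, a histone demethylase, rose by 0.32 ± 0.08 (adjusted p = 0.00658), but by 0.05 on its unique-type probe set, where the adjusted p was 0.646.

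Of 16 measured enzymes that make or break down receptor ligands 2 rose and 6 fell, with a median of -0.06. Aldh1a1, which makes retinoic acid from retinal, was at 11.65, 11.65, 11.33 and 11.57 in wild type and at 9.30, 9.16, 9.10 and 9.35 in MT. The spread within either group was small beside the distance between them, and the mean fell from 11.55 ± 0.15 to 9.22 ± 0.12 (-2.33 ± 0.09, limma adjusted p = 1.1e-08). Cyp27a1, a sterol hydroxylase that makes oxysterol and vitamin D ligands, fell by 1.18 ± 0.15 (adjusted p = 6.65e-05). Dio2, which activates thyroid hormone, fell by 0.96 ± 0.18 (adjusted p = 0.00136), and by 0.32 averaged over its probe sets. Chosen after its values were seen, Hsd11b1, which regenerates active glucocorticoid, went from 8.12 ± 0.35 to 7.58 ± 0.22 and fell by 0.54 ± 0.16 (adjusted p = 0.0189); its call depended on wild-type arrays 3 and 4 and on MT arrays 1 and 2, and leaving out any 1 of them gave an adjusted p from 0.0509 to 0.0593.

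All 16 glucocorticoid and mineralocorticoid target genes were measured, and 4 rose and 6 fell, with a median of -0.12. The metallothionein gene Mt2 fell from 12.12 ± 0.18 to 10.28 ± 0.15 (-1.84 ± 0.10, limma adjusted p = 1.72e-07). Klf15, a metabolic transcription factor induced by glucocorticoid, fell from 8.81 ± 0.09 to 7.18 ± 0.18 (-1.63 ± 0.09, adjusted p = 2.18e-07), and Mt1 fell by 1.35 ± 0.09. On its unique-type probe set Mt1 fell by 0.51. Of the list, Fkbp5 differed by -1.32 (limma adjusted p = 3.8e-07) and Tsc22d3 by -0.97 (adjusted p = 1.68e-06), both also chosen after their values were seen. Others of the list rose, and Cebpd, an acute-phase transcription factor chosen here after its values were seen, went from 6.79 ± 0.36 to 8.05 ± 0.29 (1.25 ± 0.18, adjusted p = 0.000203), a rise of 0.65 as the mean over its probe sets. Some of these targets are known to respond to androgen as well.

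Of 9 estrogen receptor targets 2 rose and 3 fell, with a median of -0.04. Ltf, which encodes the secreted iron-binding protein lactoferrin, rose from 6.30 ± 0.38 to 10.35 ± 0.43 (4.05 ± 0.22, limma adjusted p = 1.62e-07). Cited1 rose by 1.33 ± 0.19 (adjusted p = 0.00019), and the growth factor gene Igf1 fell by 0.91 ± 0.13 (adjusted p = 0.000183). Of 8 retinoic acid receptor targets 1 rose and 3 fell, with a median of -0.17, and the 3 include Rarb itself. Tgm2, a transglutaminase, fell by 0.69 ± 0.11 (adjusted p = 0.000496). Rarres2, which encodes chemerin, fell by 1.15 ± 0.14 (adjusted p = 7.01e-05), but by 0.20 on its unique-type probe set, where it did not pass (adjusted p = 0.076).

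Of 13 PPAR targets 2 rose and 6 fell, with a median of -0.20. Ehhadh, an enzyme of peroxisomal fat oxidation, was at 6.95, 7.14, 6.63 and 7.04 in wild type and at 5.71, 6.01, 5.95 and 5.80 in MT. The groups did not overlap, and it fell by 1.07 ± 0.11 (limma adjusted p = 1.63e-05). Plin2, which coats lipid droplets, rose from 8.16 ± 0.20 to 9.07 ± 0.15 (0.91 ± 0.11, adjusted p = 4.93e-05). Angptl4, a secreted inhibitor of lipoprotein lipase, fell by 0.69 ± 0.16 (adjusted p = 0.00526), but differed by -0.03 on its unique-type probe set (adjusted p = 0.801). Fabp4, a fatty acid carrier abundant in fat cells and chosen after its values were seen, was at 7.55, 8.86, 9.43 and 10.58 in wild type and at 6.73, 8.23, 6.90 and 6.63 in MT. The highest arrays of both groups were also the highest for the 5 adipocyte genes. It fell by 1.98 ± 0.54 (adjusted p = 0.0125), but its call was lost with a robust prior (0.0676) and on its unique-type probe set (-0.10, adjusted p = 0.562).

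Of 11 LXR and FXR targets 2 rose and 2 fell, with a median of 0.08. Abcg1, a cholesterol exporter, rose from 5.42 ± 0.20 to 6.72 ± 0.07 (1.30 ± 0.10, limma adjusted p = 1.34e-06), and Mylip, a ligase that degrades the LDL receptor, rose by 0.61 ± 0.11 (adjusted p = 0.00137). Scd1, a fatty acid desaturase, fell by 0.85 ± 0.10 (adjusted p = 5.93e-05). Of 8 vitamin D and thyroid hormone targets 1 rose and 1 fell, with a median of 0.06. Trpv6, an epithelial calcium channel induced by vitamin D, was at 9.94, 10.11, 9.84 and 9.69 in wild type and at 6.90, 7.06, 6.68 and 6.65 in MT. It fell by 3.07 ± 0.11 (adjusted p = 8.57e-09) while its receptor gene Vdr rose. Me1, the cytosolic malic enzyme, rose by 0.39 ± 0.07 (adjusted p = 0.00147).

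Of 11 targets of the estrogen-related receptors, all of them measured and Esrra among them, 4 rose and 3 fell, with a median of -0.02. Idh3a, a subunit of a citric acid cycle dehydrogenase, rose from 8.44 ± 0.15 to 9.01 ± 0.05 (0.57 ± 0.08, limma adjusted p = 0.000149), and by 0.31 on its unique-type probe set. Ldhb, a lactate dehydrogenase subunit, was at 8.46, 8.47, 8.41 and 8.44 in wild type and at 7.86, 7.72, 7.71 and 7.82 in MT, and it fell by 0.67 ± 0.06 (adjusted p = 7.16e-06).

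**Figure D4:**
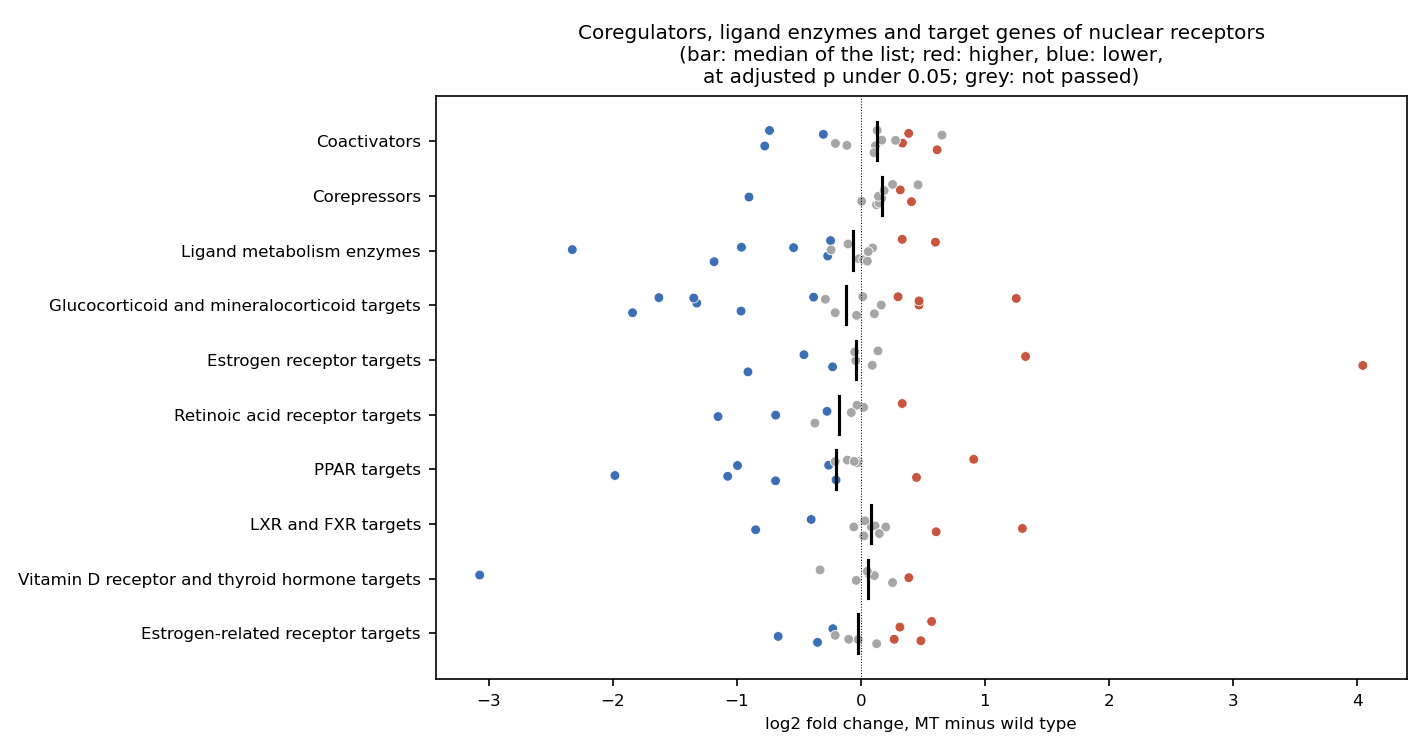
Log2 fold change of each measured coregulator, ligand enzyme or target gene, 1 point a gene, with the median of each list as a bar (n = 4 arrays per group). The medians lie between -0.20 and 0.17, and every list holds called genes on both sides of 0.

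Markers of other cell types moved between the groups on the same arrays, and in whole tissue fewer cells of a type and less RNA per cell cannot be told apart. All 10 smooth muscle genes measured fell, with a mean level of 8.81 to 9.52 in wild type and 7.82 to 8.61 in MT. Of 10 fibroblast genes 8 fell, at 8.18 to 8.87 and 7.39 to 7.90. Of 7 basal epithelial genes 5 fell, at 6.79 to 7.31 and 6.36 to 6.42, and of 5 adipocyte genes 3 fell, namely Adipoq, Cidec and Lep. The call of Adipoq was lost without any 1 of 5 of the 8 arrays (adjusted p from 0.0579 to 0.0673) and that of Lep without MT array 1, 3 or 4 (0.0816 to 0.0856), and both were lost with a robust prior (0.1 and 0.0653). Without wild-type array 4 the fall of Lep went from 0.59 to 0.34. All 9 luminal epithelial genes rose, at 10.79 to 10.96 and 11.71 to 11.84, and so did all 5 proliferation genes, with a median of 2.21. None of these genes was at or below the bacterial controls on all arrays. On wild-type array 2, where the smooth muscle and fibroblast means were lowest in that group, Nr2f1, Thra and Rora had their lowest wild-type value, Ppara and Nr3c1 had neither their lowest nor their highest, and Rxrg had its highest. On MT array 2, lowest in its group for smooth muscle, Nr2f1, Rxrg, Thra and Nr3c1 had their lowest MT value. There Ppara had its highest MT value and Rora neither. On MT array 1, lowest in its group for fibroblast genes, Rora had its lowest MT value and the others neither extreme. The medians of -1.04 for smooth muscle and -0.88 for fibroblast genes lie beside falls of 1.40 for Nr2f1, 1.24 for Rxrg, 0.73 for Ppara, 0.64 for Thra, 0.51 for Rora and 0.48 for Nr3c1, and the part of the tissue's make-up in these falls was not tested.

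Immune markers rose in part. Of 10 macrophage genes 6 rose and 1 fell, with a mean level of 6.76 to 7.40 in wild type and 7.62 to 7.81 in MT, while Nr1h3, a receptor known from macrophages, was lower. Of 6 granulocyte genes 3 rose, of 6 T cell genes 3 rose, and of 5 B and plasma cell genes 1 rose. Of 9 endothelial genes 1 fell, of 4 nerve and Schwann cell genes 1 rose, and of 5 skeletal muscle genes 1 rose and 1 fell, with Myh4, a fast muscle myosin, at or below the controls on all 8 arrays. The part of these cells in the receptor values was not tested.

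**Figure D5:**
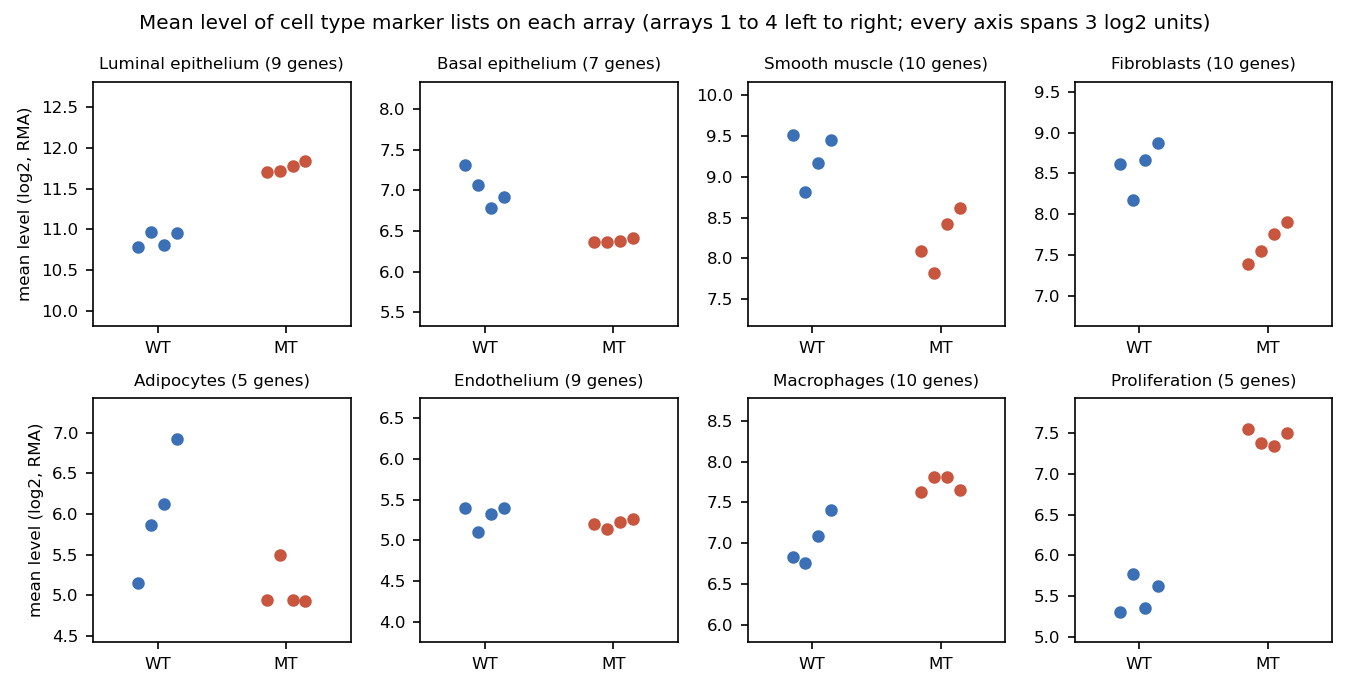
Mean log2 level of 8 of the marker lists on every array, wild type (WT) and MT, arrays 1 to 4 from left to right (n = 4 per group). Smooth muscle, fibroblast and basal means are lower on all MT arrays than on any wild-type array, and luminal, macrophage and proliferation means are higher.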

How the data were processed

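The deposited log2 values come from RMA, a background correction with quantile normalization and 1 summary value per probe set, as named in the submitters' processing notes. Its version is not given in the sources used. Of 22690 probe sets, 64 were controls, 20380 had 1 gene symbol, 691 several and 1555 none, per the platform annotation. The brightest probe set on average stood for each of 12393 genes. No filter or further scaling was applied. Background was the highest of 12 bacterial control probe sets on each array. The number of arrays limits the precision.

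MT was compared with wild type by limma (lmFit, eBayes, two-sided) on all 8 arrays without covariates, with Benjamini-Hochberg adjustment over all genes and a threshold of 0.05. RNA quality used an exact permutation test over 70 assignments of arrays. The fit was tested on simulated data. The receptors, lists and alternatives were chosen with earlier results of these data known, so no count is independent support. Named genes are all measured receptors, the largest called, non-overlapping changes of each list (at most 3 genes for pathways, at most 2 for cell types) or, with none, its brightest gene, and Pbsn. Genes outside this rule are marked, or named for their place in a list (Adipoq, Myh4, Hoxb13, Msmb, Azgp1, Pate4, Svs4 and Svs6) after their values were seen.

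Array numbers 1 to 4 come from the sample titles. Deviations from the group means correlated between same-numbered arrays at 0.10 to 0.18, over 0.1 in all 4 pairs. Since 8 of 8 arrays correlated best with their own number, the numbers were read as possible pairs. This comes from the data, as no label states a shared litter or day. The main fit left the possible pairs out, so its p-values and intervals do not take them into account. With the number as a replicate block, 8 receptors were lower and 3 higher. The alternatives were the number as a replicate block, array weights, a robust prior with a trend, the mean over probe sets, unique-type probe sets, only genes above the median level, median centring, renewed quantile normalization, a threshold of 0.01 and leaving out each array. A fit without MT array 2 and wild-type array 4 was added after seeing the data. The fits used limma 3.58.1 in R 4.3.3, and the figures matplotlib 3.10.9 with pandas 2.3.3 in Python 3.11.15.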

Additional observations from a re-analysis of the deposited data

Results flagged for a closer look

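Of 188 groups of 4 arrays examined for named genes, 19 held 1 array far from the other 3 by Dixon's criterion, where chance gives about 1 in 20 groups. Among the receptors, wild-type array 1 was low for Esrra (6.64), wild-type array 2 was low for Rxrb (7.92), wild-type array 3 was high for Nr0b1 (3.74), and MT array 1 was high for Nr1i2 (4.93) and low for Rora (6.83). Among their coregulators and targets, wild-type array 1 was low for Ncoa3 (6.48) and Idh3a (8.22), wild-type array 2 was low for Igf1 (7.56), wild-type array 4 was high for Scd1 (12.20), MT array 1 was high for Cited2 (10.59) and low for Mylip (10.45), and MT array 3 was low for Me1 (7.13). Among the markers, wild-type array 2 was low for Dcn (11.49), a fibroblast gene, and high for Mbp (7.90), a myelin gene, and wild-type array 4 was high for Lep (5.38), an adipocyte gene. MT array 2 was low for S100a8 (6.99), a granulocyte gene, and for Mbp (8.04), and high for Lep (4.24), while MT array 1 was low for Cd4 (5.59), a T cell gene.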

How the results depend on the processing

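Nr2f1, Rxrg, Ppara, Thra, Rora, Nr3c1, Esrra and Vdr kept their direction and their call under every alternative in which they were tested, the threshold of 0.01 included. Of these, Nr2f1, Rxrg, Ppara and Vdr lie below the median level and were not tested in the fit limited to genes above it. The count of 10 lower receptors became 6 at a threshold of 0.01, or 15% beside 15.1% of all genes. Among genes above the median level 12 receptors were tested and 4 were lower, Nr3c1, Thra, Rora and also Rxra, which is not among the 10. Those 4 were 33.3%, beside 31.1% of all genes above that level. The lower pathway genes went from 34 to 22 at 0.01, or 20.2% beside 15.1% of all genes. Leaving out 1 array at a time gave 7 to 8 lower and 2 to 3 higher receptors. These were 17.5% to 20% and 5% to 7.5%, beside 18.6% to 20.7% and 17.6% to 19.4% of all genes. Without MT array 2 and wild-type array 4 together 7 were lower (17.5% beside 17.2% of all genes) and 2 higher (5% beside 16.5%). With the array numbers as a replicate block 8 receptors were lower (20% beside 22% of all genes) and 3 higher (7.5% beside 20.1%). Esrrg and Rarb lost their call there, and no other receptor changed its call. Mbp, the nerve marker called higher at 0.43, gave -0.0052 as the mean over probe sets (adjusted p = 0.952), and the cause was not tested. Over the receptors and all alternatives, 644 values kept their side of the threshold, 37 lost their call, 4 gained one and 0 calls reversed. The number of arrays limits the precision, and differences inside the intervals given are not excluded for receptors that were not called. The dim receptors Hnf4g, Nr0b1 and Pgr lay near background, and so did Nr2f1 on the MT arrays.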
